A study of Rattus norvegicus with 151 samples.

Results

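The 9 apolipoprotein genes described here were Apoa1, Apoa2, Apoa4, Apoa5, Apob, Apoc1, Apoc3, Apoe and Apoh, out of 14218 genes that the arrays named. They were listed by family name, with the falls of Apoa4 and Apoa1 at 500 mg/kg crude MCHM already known. The probe set of each gene was selected on its mean signal, the brightest in the tissue, so levels are descriptions. Arrays measured messenger RNA of kidney and liver from male rats of the Harlan Sprague-Dawley stock, 6 to 8 weeks old, dosed by gavage on 5 consecutive days. The chemicals, from the West Virginia spill, were MCHM (4-methylcyclohexanemethanol), PPH (propylene glycol phenyl ether) and crude MCHM, a technical product made up mostly of MCHM. Both MCHM products had 6 doses, with 500 and 300 mg/kg at the top and 100, 10, 1 and 0.1 mg/kg below, PPH had 1000, 500, 100, 10 and 1 mg/kg, and each chemical had its own corn oil vehicle group. Of 151 arrays, 150 were used, 81 of liver and 69 of kidney. Most liver groups were of 4 arrays, with 5 in the vehicle groups of MCHM and PPH and 3 at the lowest crude MCHM dose. Kidney groups held between 2 and 5 arrays, and 4 of the crude MCHM doses (0.1, 1, 10 and 100 mg/kg) had only 2 each.

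Apolipoproteins are the protein coats of lipoproteins, the particles that carry triglyceride and cholesterol through plasma. The liver builds very low density lipoprotein around apolipoprotein B, and makes most of the apolipoprotein A-I that starts high density lipoprotein. In rats apolipoprotein A-IV comes from the intestine and the liver. Smaller members move between particles and steer their breakdown: C-III slows it, A-V promotes it, C-I modulates lipid transfer and E is the ligand for uptake into cells. Apolipoprotein H, also called beta-2-glycoprotein I, binds phospholipid.

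Apoa1, Apoc3, Apoa4 and Apoa5 lay next to each other in that order on rat chromosome 8 in RefSeq's GRCr8 annotation, and Apoc1 lay beside Apoe on chromosome 1. RefSeq's table of GRCr8 promoters held 5 of the 9 genes. The promoters of Apoa4 and Apoa5 are shown because these neighbours gave different readings under the same doses. Each is the 250 bases before the gene's start, read 5′ to 3′, from chr8:55435529-55435778 for Apoa4 and chr8:55457621-55457870 for Apoa5, both on the plus strand. Apoa5 had 2 starts in the table, and the first listed is shown. Capitals mark matches on either strand to AGGTCA and GGGTCA, the half-sites of nuclear receptors, and to TATAAA, the TATA box.
Apoa4: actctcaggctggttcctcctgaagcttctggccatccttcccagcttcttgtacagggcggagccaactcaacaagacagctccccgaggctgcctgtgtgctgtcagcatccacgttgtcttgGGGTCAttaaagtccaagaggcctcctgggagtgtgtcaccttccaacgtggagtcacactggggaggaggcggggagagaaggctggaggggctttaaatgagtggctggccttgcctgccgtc
Apoa5: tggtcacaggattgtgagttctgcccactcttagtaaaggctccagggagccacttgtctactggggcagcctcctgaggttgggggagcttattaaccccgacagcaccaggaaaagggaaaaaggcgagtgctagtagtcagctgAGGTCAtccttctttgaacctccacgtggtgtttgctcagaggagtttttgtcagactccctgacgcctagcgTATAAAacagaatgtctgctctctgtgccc
The Apoa4 window held 1 GGGTCA, near its middle. The Apoa5 window held 1 AGGTCA beginning 103 bases before the start and 1 TATAAA beginning 30 bases before it. Among 33469 promoters of this length, 11.9% held GGGTCA, 14.1% held AGGTCA and 12.9% held TATAAA on either strand, so each match was common.

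The question of the dosing groups was which liver transcripts changed and from which dose. Apoa4 and Apoa1 were the 2 members that fell, at the highest dose of crude MCHM and of PPH, and no member rose at any dose of any chemical. Apoa4 fell furthest, by 1.05 on the log2 scale at 1000 mg/kg PPH, to 0.482 of its vehicle level. Apoa1 fell to 0.807 of vehicle with crude MCHM and to 0.824 with PPH. Values are log2 RMA signals. A change was called where limma's p, adjusted by Benjamini-Hochberg over all genes tested, was under 0.05, and the small number of arrays limits the precision. In whole liver, fewer cells of a type and less RNA per cell cannot be told apart.

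Apoa4, the triglyceride-linked apolipoprotein of intestine and liver, read 11.23, 11.32, 11.42, 11.55 and 11.60 in the 5 PPH vehicle livers. It read 10.96, 10.88, 9.86 and 9.79 in the 4 livers at 1000 mg/kg PPH. All 4 treated livers were below every vehicle liver, and the lower pair lay about 1 log2 unit below the other pair. The means were 11.42 ± 0.15 (SD, n = 5) and 10.37 ± 0.63 (SD, n = 4). The change was -1.05 ± 0.19 (SE), with a 95% interval of -1.44 to -0.67 and an adjusted p of 0.0039 in limma. Of the 20 liver groups of the study, PPH vehicle had the highest Apoa4 mean and 1000 mg/kg PPH the lowest. The vehicle means of the other sets were 11.21 (MCHM) and 11.28 (crude MCHM).

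With crude MCHM, Apoa4 read 10.99, 11.09, 11.47 and 11.58 in vehicle livers and 10.21, 10.70, 10.77 and 10.93 at 500 mg/kg. The groups did not overlap. The change was -0.63 ± 0.15 (SE), 0.647 of vehicle, with an adjusted p of 0.0447 in limma. The falls of Apoa4 and Apoa1 in this comparison were known when the genes were chosen and are no independent support.

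With MCHM, Apoa4 read 10.83, 11.18, 11.21, 11.32 and 11.51 in vehicle livers and 10.36, 10.67, 10.91 and 10.95 at 500 mg/kg. The groups overlapped, with 2 of 4 treated livers below the lowest vehicle liver and all 4 below the vehicle mean. The change of -0.49 ± 0.14 (SE) missed the threshold (adjusted p = 0.10), with an interval of -0.77 to -0.21.

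Apoa1 encodes the main protein of high density lipoprotein. At 500 mg/kg MCHM it read 12.95, 13.08, 13.11 and 13.11, against 13.25, 13.27, 13.30, 13.46 and 13.54 in vehicle livers. The groups did not overlap, yet the change of -0.30 ± 0.07 (SE), 0.810 of vehicle, missed the threshold (adjusted p = 0.0568 in limma). It passed after a further quantile normalization (adjusted p = 0.0478), with array weights (0.0316) and with all chemicals in 1 fit (0.00991). Array weights and the single fit also raised calls over all genes, from 0.512% to 1.53% and 1.18%. The change stayed uncalled with no filter, with the mean of probe sets and in 9 of 9 fits that each left out 1 array.

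At 500 mg/kg crude MCHM, Apoa1 read 13.004, 13.04, 13.19 and 13.31, below all vehicle livers at 13.36, 13.42, 13.43 and 13.57. The change was -0.31 ± 0.07 (SE), adjusted p 0.0318. At 1000 mg/kg PPH it read 12.97, 13.02, 13.18 and 13.27, below all vehicle livers at 13.31, 13.33, 13.34, 13.38 and 13.58. The change was -0.28 ± 0.07 (SE), adjusted p 0.0417 in limma.

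**Figure D1:**
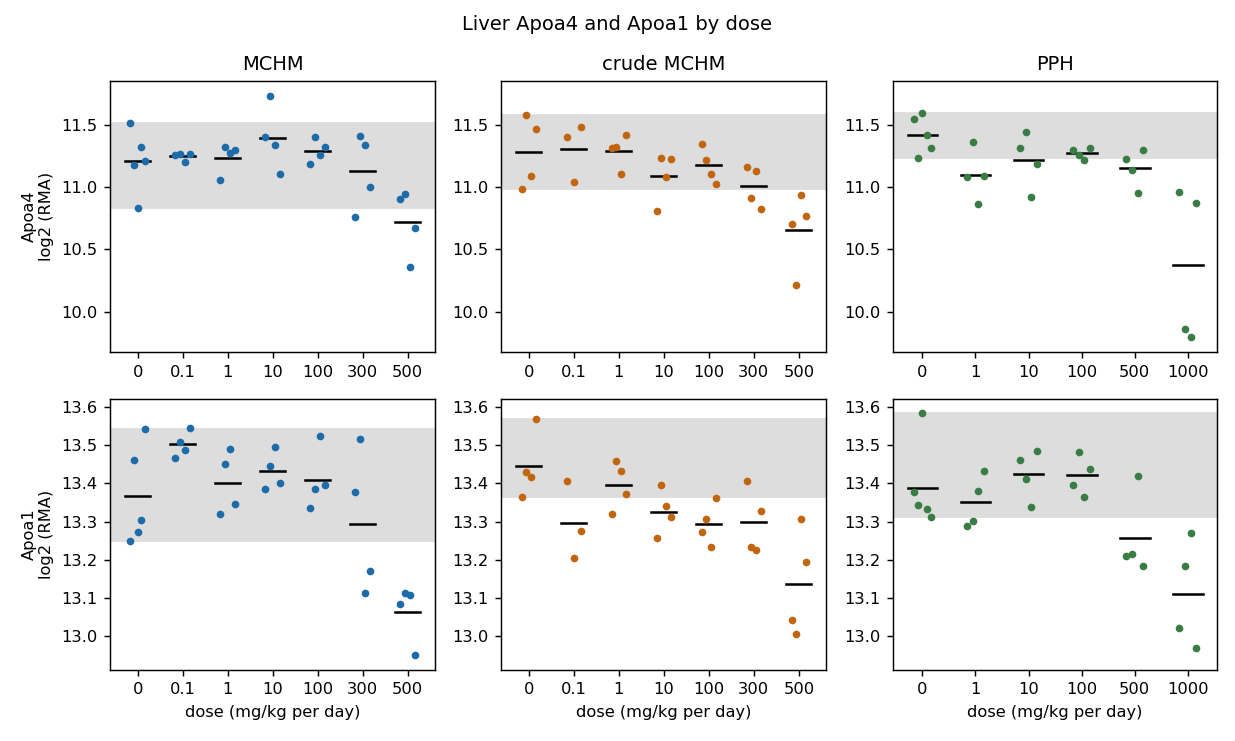
Log2 RMA values of Apoa4 (top) and Apoa1 (bottom) in liver against dose in mg/kg per day, in columns for MCHM, crude MCHM and PPH. Points are arrays, black lines group means and the grey band the range of the vehicle arrays. At 1000 mg/kg PPH all 4 arrays lie below the vehicle band in both rows, and Apoa4 splits into a pair near 10.9 and a pair near 9.8.

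The same 4 livers at 1000 mg/kg PPH were ordered differently by these genes. The livers at 9.86 and 9.79 in Apoa4 were the highest in Apoa1 (13.18 and 13.27), and the livers at 10.96 and 10.88 in Apoa4 were the lowest in Apoa1 (13.02 and 12.97). Over all 81 livers, Pearson's r between Apoa1 and Apoa4 was 0.53 after the mean of each chemical set was subtracted and -0.00 after the mean of each dose group was subtracted. Among the 36 pairs of members, the highest r within groups was 0.50, between Apoa4 and Apoc3, its neighbour on chromosome 8. Apoc1 and Apoe, neighbours on chromosome 1, had an r of 0.37 within groups. The other neighbours on chromosome 8 read -0.30 (Apoa1 and Apoc3) and 0.08 (Apoa4 and Apoa5). Apoa2 and Apob, on different chromosomes, read 0.39, so a high r was not particular to neighbours. These values are descriptions over arrays that share a normalization.

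Both highest-dose comparisons with calls had 2 of 9 members fallen. Among all genes, 0.158% of 11402 fell at 500 mg/kg crude MCHM and 0.538% of 11342 fell at 1000 mg/kg PPH. The crude MCHM falls were known when the genes were chosen, so that count against its share is no independent support. The PPH count is a description too, because the members were chosen with earlier results of these data known. With MCHM at 500 mg/kg, 0 of 9 members were called and 0.221% of 11335 genes fell and 0.291% rose. There 3 members (Apoa1, Apoa4 and Apoa2) had an unadjusted p under 0.05. The median change of the 9 members was -0.01, -0.01 and -0.02 with MCHM, crude MCHM and PPH at their highest doses, and that of all genes 0.01, 0.01 and 0.03.

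The calls rested on small groups. Both members stayed called at 500 mg/kg crude MCHM in 2 of 8 fits that each left out 1 array. These were the fits without the vehicle liver at 10.99 or the treated liver at 10.93 in Apoa4, and both calls were lost without any 1 of the other 6 livers. The changes then lay between -0.48 and -0.69 for Apoa4 and between -0.26 and -0.33 for Apoa1. At 1000 mg/kg PPH, Apoa4 stayed called in 9 of 9 such fits and Apoa1 in 2 of 9. Without the treated liver at 12.97 the Apoa1 change was -0.23 (adjusted p = 0.146), and without the vehicle liver at 13.58 it was -0.23 (adjusted p = 0.0969).

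Below the highest dose, 0 of 14 dose comparisons were called for Apoa4 and 0 of 14 for Apoa1. Of all genes, limma called 1.01% at 300 mg/kg crude MCHM (0.877% risen), 0.0265% at 300 mg/kg MCHM (0.0176% risen and 0.00882% fallen), 0.0882% at 500 mg/kg PPH, 0.00882% at 10 mg/kg PPH (all risen) and 0% at the other lower doses. Apoa4 changed by between -0.33 and 0.19 and Apoa1 by between -0.15 and 0.14. At 100 mg/kg crude MCHM all 4 Apoa1 livers, from 13.2328 to 13.3605, were below the lowest vehicle liver at 13.3636, though uncalled. The Apoa1 means at 0.1, 1, 10, 100 and 300 mg/kg crude MCHM were 13.295, 13.396, 13.326, 13.293 and 13.298, not in the order of dose. The 300 mg/kg values of Apoa4 were 10.76, 11.01, 11.34 and 11.42 with MCHM and 10.83, 10.91, 11.13 and 11.16 with crude MCHM, and both groups overlapped their vehicle. The -0.33 belonged to the lowest PPH dose, 1 mg/kg, where Apoa4 read 10.86, 11.08, 11.09 and 11.37 (adjusted p = 0.552). At 500 mg/kg PPH it read 10.96, 11.14, 11.23 and 11.30, a change of -0.27. In both groups 3 of 4 livers were below the lowest vehicle liver, so below 1000 mg/kg the PPH means did not fall in the order of dose. Ordered by mean, 500 mg/kg (MCHM and crude MCHM) or 1000 mg/kg (PPH) was the lowest group for both genes in each set. Only for Apoa1 under MCHM did the lowest group not overlap the next, which was 300 mg/kg. Even there the groups all but touched, with the highest 500 mg/kg liver at 13.1124 and the lowest 300 mg/kg liver at 13.1126. In the 5 other orders the lowest group overlapped its neighbour.

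The dose trend, fitted as a straight line over the ranks of the doses, fell for Apoa1 by 0.047 log2 units per rank with MCHM (adjusted p = 0.0124), by 0.037 with crude MCHM (adjusted p = 0.0436) and by 0.048 with PPH (adjusted p = 0.0483). For Apoa4 it fell by 0.093 with crude MCHM (adjusted p = 0.0172) and by 0.14 with PPH (adjusted p = 0.0248), and it was -0.059 with MCHM (adjusted p = 0.0956). Trends fell for 1.53% of genes with MCHM (0.856% rose), 0.535% with crude MCHM (1.38% rose) and 0.344% with PPH. The crude MCHM trends include the 500 mg/kg arrays whose falls were known when the genes were chosen, so they are no independent support either. The MCHM trend of Apoa1 stayed called in 29 of 29 fits that each left out 1 array. The Apoa4 trend stayed called in 26 of 27 fits with crude MCHM and 22 of 25 with PPH, and the Apoa1 trend in 12 of 27 and 5 of 25. The crude MCHM trend of Apoa4 was lost without the vehicle liver at 11.58 (-0.082, adjusted p = 0.0535), and its PPH trend without the vehicle liver at 11.55 or either treated liver at 9.86 or 9.79. Without vehicle replicate 6 the MCHM trend of Apoa4 was -0.069 and passed (adjusted p = 0.0426), and in the other 28 of 29 fits it was not called.

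The other 7 members were each compared with vehicle at 17 doses in liver, and limma called 0 of these changes. Their changes lay between -0.14 and 0.18 and all their 95% intervals between -0.32 and 0.33. A single one had an unadjusted p under 0.05, that of Apoa2, another protein of high density lipoprotein, at 500 mg/kg MCHM. Apoa2 read 13.44, 13.58, 13.67 and 13.73 there and 13.30, 13.39, 13.44, 13.48 and 13.53 in vehicle livers. The groups overlapped, 3 of 4 treated livers were above the highest vehicle liver, and the change of 0.18 ± 0.07 (SE) had an adjusted p of 0.279.

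Apoa5, whose protein promotes triglyceride breakdown, changed by -0.07, -0.04 and -0.05 at the highest doses of MCHM, crude MCHM and PPH. Its treated and vehicle livers overlapped in each. Replicate 43 at 500 mg/kg MCHM was the lowest of the 81 livers at 11.68, and the other 3 livers of that group read 11.99, 12.02 and 12.19. Over 17 dose comparisons Apoa5 stayed between -0.14 and 0.14, with a lowest adjusted p of 0.56.

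Apob, the structural protein of very low density lipoprotein, changed by between -0.06 and 0.04 over 17 dose comparisons. Apoc1 changed by between -0.01 and 0.07, Apoc3, an inhibitor of triglyceride breakdown, by between -0.06 and 0.03, and Apoh by between -0.06 and 0.03. Apoe, the uptake ligand, changed by between -0.02 and 0.07. At 1000 mg/kg PPH the Apoe livers, from 14.06 to 14.12, were all above the vehicle livers, from 13.96 to 14.05, with a change of 0.07 ± 0.05 (SE) and an adjusted p of 0.518. At 0.1 mg/kg crude MCHM the Apoe livers, from 14.04 to 14.05, were also all above vehicle, from 13.94 to 14.03. Apoh livers at 300 mg/kg crude MCHM, from 13.96 to 14.03, were all below vehicle, from 14.04 to 14.07.

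**Figure D2:**
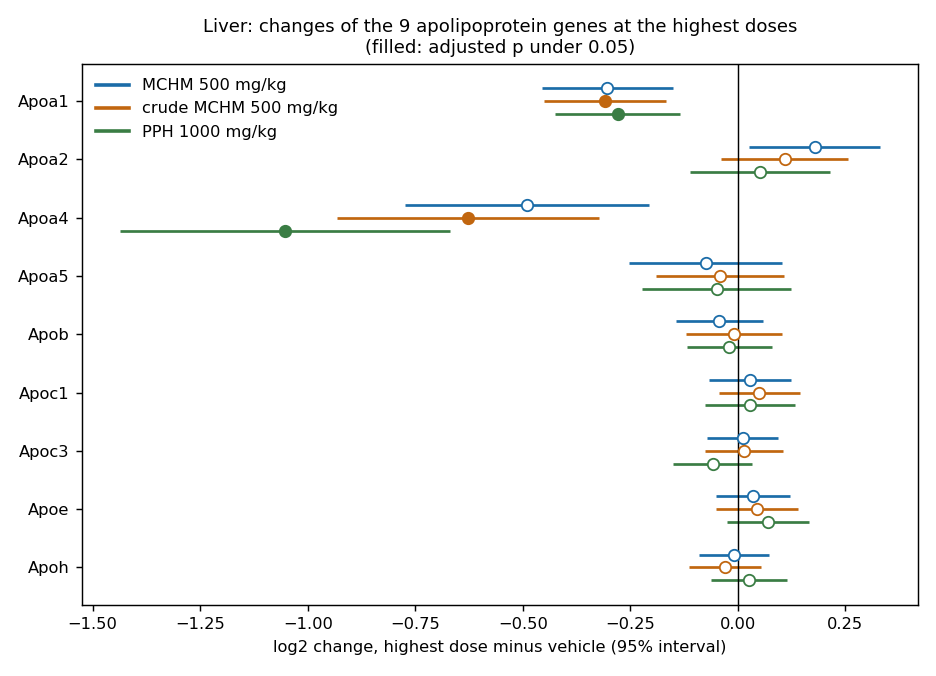
Change in log2 value of the 9 genes in liver at the highest dose of each chemical minus its vehicle. Points are limma estimates, bars 95% intervals and filled points have an adjusted p under 0.05. Apoa4 and Apoa1 lie left of 0 for all 3 chemicals. The intervals of the other 7 genes lie within -0.32 to 0.33, the range of their intervals over all doses.

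Most liver signals were near the upper end of the array's scale, where a probe set gains little signal from more RNA. The highest value in the table was 14.85. On average the probe sets of Apoc3, Apoe, Apoh and Apoc1 lay 0.518, 0.779, 0.786 and 0.827 log2 units below the brightest probe set of their array. Apob, Apoa2 and Apoa1 lay 1.27, 1.36 and 1.49 below it, Apoa5 2.74 and Apoa4 3.69. Apoc3 was on average the 6th brightest of 31099 probe sets, so a rise of Apoc3, Apoe, Apoh or Apoc1 had little room to show. Apoa4, with the largest change, was also the member farthest from that limit; whether larger changes of the bright members were hidden was not tested.

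Spread within groups was small in bright genes. The within-group SD was 0.030 for Apoh, 0.035 for Apoc3, 0.041 for Apoe, 0.048 for Apoc1 and 0.055 for Apob, against a median of 0.053 for genes with a mean of 13 or more and 0.162 for all liver genes tested. It was 0.097 for Apoa1, 0.104 for Apoa2, 0.115 for Apoa5 and 0.244 for Apoa4. Of genes at 13 or more, 0 of 72 were called at 500 mg/kg MCHM (0.512% of all genes), 3 of 77 at 500 mg/kg crude MCHM (0.675%) and 4 of 78 at 1000 mg/kg PPH (1.75%), and Apoa1 was 1 of them in the latter comparisons.

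**Figure D3:**
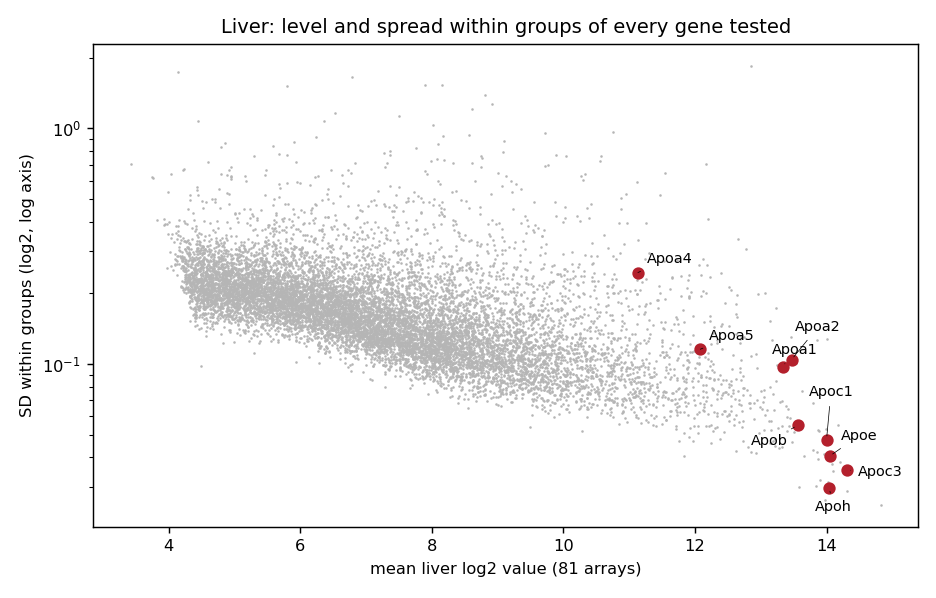
SD within dose groups (log axis) against the mean log2 value over 81 liver arrays, for every gene tested in liver (grey) and the 9 members (red). Members above 13 lie at SDs between 0.030 and 0.104, below most grey points at lower signal, and Apoa4 at 11.13 has the largest SD of the members, 0.244.

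Apob and Apoe had a second probe set. In liver the second set of Apob averaged 6.62 and that of Apoe 2.94, far below saturation, with that of Apoe near the floor of the table. Over 17 dose comparisons each, the changes were between -0.39 and 0.30 for Apob and between -0.37 and 0.21 for Apoe, and 0 were called, with a lowest adjusted p of 0.229 and 0.216.

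The livers held the markers of their tissue. Of 10 hepatocyte markers, 9 were on the array and all 9 passed the filter, and their summed level ranged from 16.94 to 16.97 in PPH vehicle livers and from 16.88 to 16.96 at 1000 mg/kg PPH. That sum is carried by markers near the top of the scale, such as Alb (median 14.83) and Ttr (14.21), so it had little room to show a rise. Hepatocyte markers changed by a median of -0.01, 0.01 and -0.05 at the highest doses of MCHM, crude MCHM and PPH. Enterocytes also make Apoa4. Of 7 enterocyte markers 5 were on the array, with a summed level from 7.18 to 7.67 in PPH vehicle livers and from 7.34 to 7.42 at 1000 mg/kg, and medians over the livers of 5.81 for Fabp2 and 4.45 for Vil1. None of the enterocyte markers was called in these comparisons. Macrophage markers (8 of 10 on the array) changed by medians of -0.28, -0.18 and -0.22 with 0 called, and their summed level went from 12.28-12.68 in PPH vehicle livers to 12.06-12.43 at 1000 mg/kg. Their part in the falls of Apoa4 and Apoa1 was not tested.

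At 500 mg/kg, the highest dose that all 3 chemicals shared, the changes of 3 pairs of chemicals were compared in liver with p-values adjusted over all 11624 genes tested. In that comparison 0 of 9 members differed for any pair, with 0%, 0.0344% and 0% of all genes called for MCHM against crude MCHM, PPH against MCHM and PPH against crude MCHM. The Apoa4 change with MCHM minus that with crude MCHM was 0.14 (interval -0.33 to 0.60). PPH minus MCHM was 0.22 (-0.23 to 0.67) and PPH minus crude MCHM 0.36 (-0.11 to 0.82). For Apoa1 the differences were 0.01 (-0.19 to 0.20), 0.17 (-0.02 to 0.36) and 0.18 (-0.02 to 0.37). The Apoa4 intervals leave room for differences about as large as the changes at 500 mg/kg themselves, while that of Apoa1 between MCHM and crude MCHM does not reach the size of its changes (-0.30 and -0.31). In kidney 0 of 6 members tested differed, with 0.0261%, 0% and 0.0956% of all genes called for the same pairs. The 1000 mg/kg dose was given for PPH alone and has no matched dose.

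In kidney the family read differently. Only Apoe, Apoc3, Apoh and Apob passed the filter in each chemical set, and the lowest-to-highest range over 69 kidneys was 10.90 to 12.22 for Apoe, 8.73 to 10.13 for Apoc3, 5.86 to 8.60 for Apoh and 4.29 to 5.53 for Apob. Apob was read from its other probe set here. The means of the remaining 5 members over the kidneys, at most 4.09, lay below the filter level of 4.66. In 17 dose comparisons per gene, limma called 0 for each of these 4 members. Among all kidney genes 0.0177% were called at 500 mg/kg MCHM, 0% at 500 mg/kg crude MCHM and 2.03% at 1000 mg/kg PPH.

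Apoe had the smallest adjusted p of the kidney members. It read 11.67, 11.74, 11.75, 11.83 and 12.22 in the PPH vehicle kidneys and 11.18, 11.28, 11.33 and 11.45 at 1000 mg/kg. The groups did not overlap, and the change of -0.53 ± 0.15 (SE), 0.691 of vehicle, had an adjusted p of 0.0746 in limma. At 1 mg/kg PPH the kidneys, from 11.06 to 11.61, were also all below the vehicle kidneys (change -0.45, adjusted p = 1). The lower doses did not order it: the means were 11.39, 11.55, 11.48 and 11.60 at 1, 10, 100 and 500 mg/kg, against 11.84 in vehicle. PPH vehicle had the highest Apoe mean of the 20 kidney groups, and the vehicle means of the other sets were 11.40 (MCHM) and 11.57 (crude MCHM). The vehicle kidney at 12.22 also had the highest mean of 10 proximal tubule markers among the 69 kidneys (12.51, median 12.33). Of these markers, Slc5a2 and Slc22a8 were highest in that kidney and the rest in other kidneys. Their part in the Apoe values was not tested. In 9 fits that each left out 1 array the change lay between -0.58 and -0.44, uncalled in each.

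Apoc3 averaged 9.65 over the kidneys. Its change was 0.30 at 500 mg/kg MCHM against a vehicle group with the lowest mean of the 20 groups, 9.35, in which replicate 5 read 8.73 and the others 9.36 to 9.66. Replicate 5 was also the lowest of the 69 kidneys in the proximal tubule markers Slc34a1 (12.80) and Slc22a6 (11.24), and the highest in Umod (13.79). Its Aqp1 (12.56) and Kap (14.52), also proximal tubule markers, lay above their medians (12.38 and 14.51). The part of this in the Apoc3 change was not tested. Apoh changed by 0.52 at 1000 mg/kg PPH (adjusted p = 0.248) and by -0.42 at 500 mg/kg MCHM (adjusted p = 0.681). Fat cell markers other than Lep were highest in 2 of the 69 kidneys, replicate 36 at 300 mg/kg MCHM and replicate 42 at 500 mg/kg MCHM. Ucp1 read 13.80 and 12.41 in them (others 4.27 to 11.92, median 4.65) and Cidea 12.75 and 12.06 (others 4.85 to 10.56). Lep was highest in replicate 19 at 1 mg/kg MCHM, at 4.26. Replicate 42 had the lowest Apoh (6.07) and the highest Apoe (11.76) of its group, and without it the Apoh change at 500 mg/kg MCHM was -0.19 (adjusted p = 0.968) and the Apoe change went from 0.20 to 0.14. Their part in these values was not tested.

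**Figure D4:**
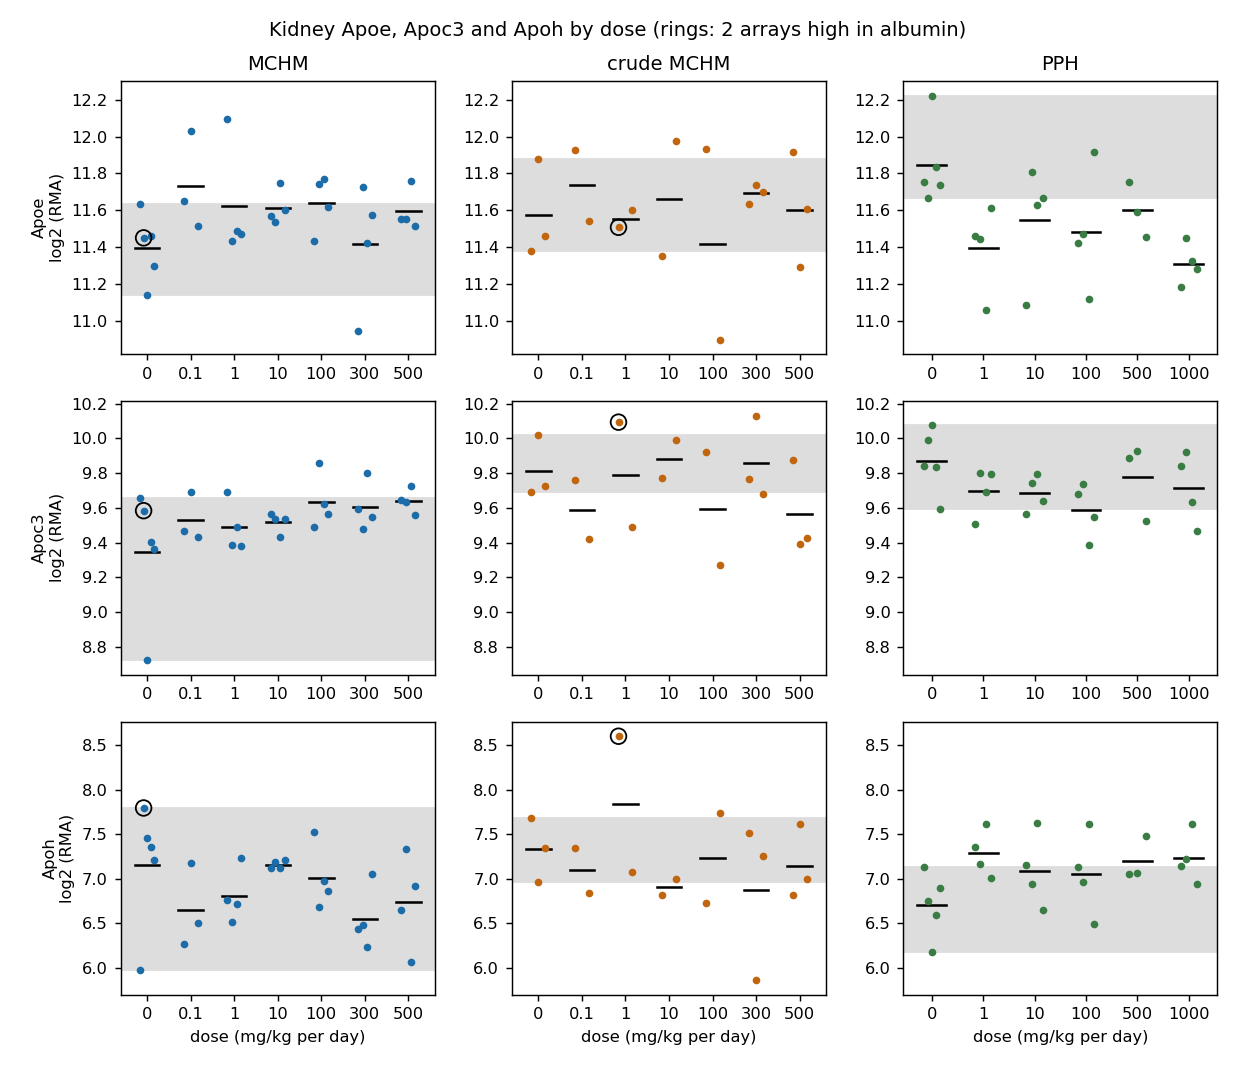
Log2 RMA values of Apoe, Apoc3 and Apoh (rows) in kidney against dose in mg/kg per day, for MCHM, crude MCHM and PPH (columns). Points are arrays, black lines means, the grey band the vehicle range and rings the 2 kidneys with high albumin signal. At 1000 and at 1 mg/kg PPH all 4 Apoe points lie below the vehicle band, and the ringed crude MCHM kidney has the highest Apoh value, 8.60.

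In the kidneys, 2 arrays stood apart in some liver genes: 1 of the 2 at 1 mg/kg crude MCHM and vehicle replicate 4 of the MCHM set. Albumin (Alb) read 11.06 and 10.19 in them and between 3.59 and 7.28 in the other 67. Transthyretin (Ttr) read 9.32 and 8.44, against at most 6.96. Of the other hepatocyte markers, Ahsg, Fgb and Serpina1 were also highest in these kidneys. Cps1, Arg1, Tat and Cyp2e1 were highest in other kidneys. Cyp2e1 read 10.60 in the crude MCHM kidney, against a median of 11.04 over 69 kidneys. Apoa1 read 6.23 and 5.28, against 2.40 to 4.24 in the others, Apoa2 6.63 and 5.34 against 3.26 to 4.71, and Apoc1 7.99 and 6.72 against 2.80 to 4.64. Apoh read 8.60 and 7.80, against at most 7.74. Apoc3 at 10.09 and 9.58, Apoe at 11.51 and 11.45, Apoa4 at 4.62 and 4.25 and Apoa5 at 4.68 and 4.74 lay inside the range of the other kidneys. Without the first of them the Apoh change at 1 mg/kg crude MCHM went from 0.51 to -0.25. Without vehicle replicate 4 the Apoh change at 500 mg/kg MCHM went from -0.42 to -0.26, and no kidney call was gained. Their part in these values was not tested.

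**Figure D5:**
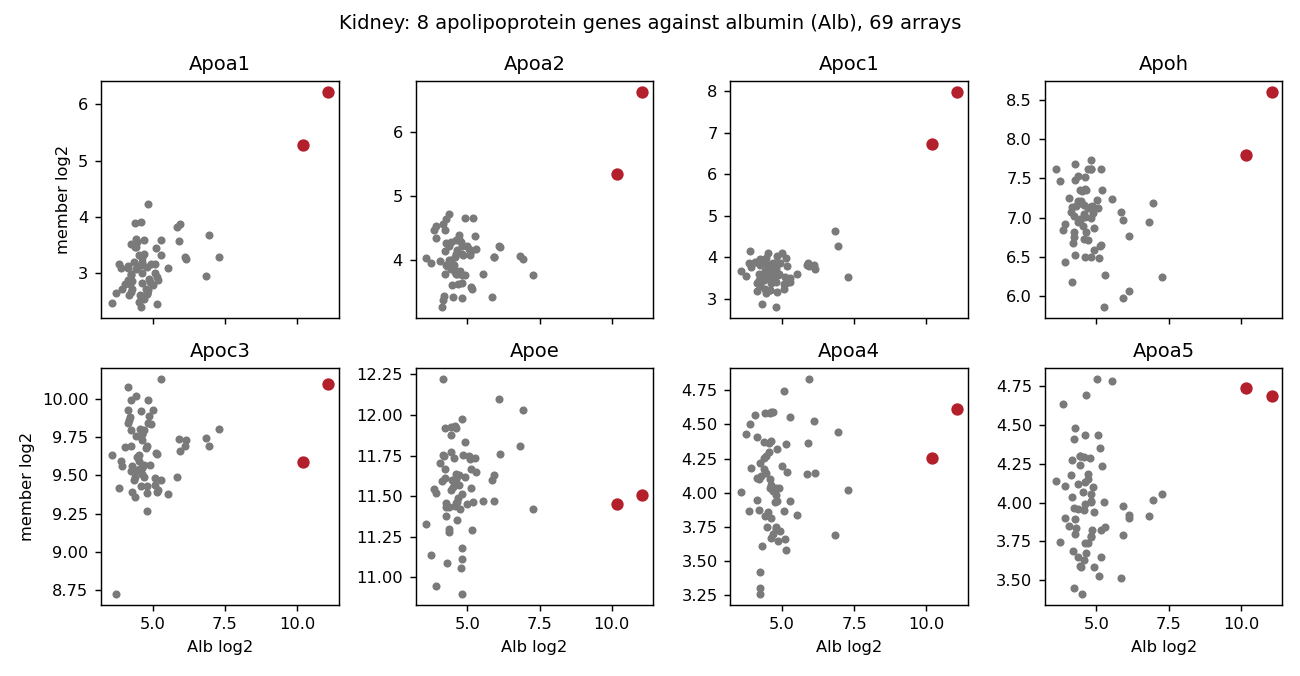
Log2 values of 8 members against albumin (Alb) in 69 kidneys, 1 point per array, with the 2 kidneys that stand apart in red. The red points are the highest 2 for Apoa1, Apoa2, Apoc1 and Apoh and lie among the other points for Apoc3, Apoe, Apoa4 and Apoa5.

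The liver change minus the kidney change was tested at the highest dose of each chemical, on the probe set chosen in liver. With PPH, Apoa4 was the 1 member of 9 called, at -1.30 ± 0.28 (SE), adjusted p 0.0141 in limma, where 0.236% of 11858 genes were called in that direction. Kidney Apoa4 lay below the filter level, at 3.93 ± 0.46 (SD, n = 5) in vehicle and 4.17 ± 0.13 (SD, n = 4) at 1000 mg/kg, so no kidney change was measured and the value mostly restates the liver fall. With the animal number as a replicate block it was -1.12 (adjusted p = 0.0531), in the 22 rats that had both tissues. That fit also lacked the treated liver at 9.86, which had no kidney array, so the part of the block alone was not tested. Without the treated liver at 9.79, and with no block, the difference was -1.11 (adjusted p = 0.063). Apoe differed by 0.60 (adjusted p = 0.0612), and by 0.63 without the vehicle kidney at 11.74 (adjusted p = 0.0473). In the other 17 of 18 fits that each left out 1 array, Apoe was not called. With MCHM and crude MCHM 0 of 9 members were called, where 0.0761% and 0.0589% of all genes were. Like Apoa4, the kidney means of Apoa1, Apoa2, Apoa5 and Apoc1 lay below the filter level, so these tests measured no kidney change for them. The Apoa1 difference with MCHM was 0.44, although liver Apoa1 was lower than vehicle. Its kidney vehicle mean of 3.71 included replicate 4, high in albumin, at 5.28.

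The genes whose liver pattern was most like each member were taken by Pearson's r over 81 arrays and 11623 genes, after the mean of each chemical set was subtracted. For Apoa1 they were the plasma proteins A2m (0.74), Fgb (0.68) and Serpina6 (0.68), with r of 0.53, 0.43 and 0.16 once the mean of each dose group was subtracted. For Apoa4 they were Hao2 (0.68), Tmsb4x (0.67) and Slc22a8 (0.67), with 0.45, 0.22 and 0.58 within dose groups. For Apoa5 they included Apom (0.53), itself an apolipoprotein gene, after Fabp7 (0.55). The closest gene was Prdx5 (0.58) for Apoa2, Pzp (0.55) for Apob, Hsd11b1 (0.55) for Apoc1, Serf2 (0.45) for Apoc3, Ahcy (0.61) for Apoe and Rit1 (0.47) for Apoh.

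Of 76 other lipoprotein genes on 6 lists, 64 were on the array and 60 or 61 were tested in liver. Sar1b, whose protein packs large lipoproteins for export from the endoplasmic reticulum, rose by 0.24 ± 0.06 (SE) at 500 mg/kg MCHM (adjusted p = 0.0483), the 1 of 60 called there. With crude MCHM at 500 mg/kg 0 of 60 were called. With PPH at 1000 mg/kg 2 of 61 were called, both on the list of plasma remodelling enzymes: Lipc, hepatic lipase, fell by 0.27 ± 0.07 (adjusted p = 0.0417), and Pltp, the phospholipid transfer protein, fell by 0.39 ± 0.10 (adjusted p = 0.0448). All genes were called at 0.512%, 0.675% and 1.75% in these comparisons, against 1.67%, 0% and 3.28% of the listed genes.

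By list at 1000 mg/kg PPH, 2 of 9 plasma remodelling genes fell (median change -0.16), while 0 of 8 other apolipoproteins, 0 of 10 assembly and secretion genes, 0 of 10 receptors, 0 of 6 sterol and lipid exporters and 0 of 18 transcription regulators were called. In the MCHM trend, 1 of 60 listed genes rose and 5 fell, with 2.38% of all genes called. Those that fell were Lcat, the cholesterol esterifying enzyme of high density lipoprotein, the sorting receptors Sorl1 and Sort1 and the sterol exporters Abcg5 and Abcg1. In the crude MCHM trend Apoo rose and Lcat and Sorl1 fell, with 1.91% of all genes called. In the PPH trend Lipc fell, with 1.32% of all genes called. In kidney, Apobec1, the editing enzyme of Apob messenger RNA, fell by 0.48 ± 0.12 (SE) at 1000 mg/kg PPH (adjusted p = 0.0296). It was 1 of 53 listed genes there, or 1.89%, against 2.03% of all kidney genes.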

How the data were processed

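Per the submitters' processing notes the arrays were processed with RMA, and the deposited log2 values of 31099 probe sets were used as they stood; its version was not given in the sources used here. GEO's platform annotation gave 20832 probe sets 1 symbol, 436 several (not used) and 9831 none, and all 9 members matched. The kidney array at 0.1 mg/kg MCHM, replicate 13, is not used. Its median correlation with other kidneys was 0.401, and 0.952 once its rows were moved by 1 (lowest other kidney 0.986).

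For each gene the brightest probe set in a tissue was kept. Genes above the 40th percentile of the tissue (4.69 for liver and 4.66 for kidney) on at least 3 arrays were tested by lmFit and eBayes of limma 3.58.1 (R 4.3.3), two-sided, with Benjamini-Hochberg adjustment and a threshold of 0.05. Doses and trends were fitted in 6 sets, 1 per tissue and chemical, chemicals over all of a tissue's groups at once, and tissues together for 1 chemical. The code was tested on simulated data.

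The members, lists and tests were chosen with earlier results of these data known. The text names all members, up to 4 called genes per list at each highest dose, listed genes called in a trend (named after their values were seen) and up to 3 genes most like each member. Nothing in the labels says that rats of a group were dosed or processed separately, so p-values measure the spread between these arrays. Alternatives were no filter, the mean of probe sets or the other probe set, further quantile normalization, array weights, other sets of samples in the fit, the shifted array, each array left out and the animal number as a block. Liver and kidney arrays share numbers that do not repeat within a tissue: deviations of 65 same-numbered pairs from their group means correlated at a median of 0.14 over 11009 genes (-0.10 to 0.28), above 0.1 in 49 pairs.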

Additional observations from a re-analysis of the deposited data

Results flagged for a closer look

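Over the 9 members and all liver and kidney groups of 4 or 5 arrays, 11 combinations had an array far from the rest of its group, where 1 in 20 by chance would give 13.5. In liver these were Apoa1 in 1 PPH vehicle liver (13.58, others 13.31 to 13.38) and in 1 liver at 500 mg/kg PPH (13.42, others 13.18 to 13.21). Apoe was low in 1 liver at 1 mg/kg crude MCHM (13.99, others 14.05 to 14.06) and in 1 liver at 100 mg/kg crude MCHM (13.96, others 14.06 to 14.07). Apoh was high in replicate 14 at 0.1 mg/kg MCHM (14.06, others 14.02 to 14.03) and in 1 liver at 1 mg/kg PPH (14.11, others 14.01 to 14.03). In kidney, Apoa4, below the filter level, was high in replicate 25 at 10 mg/kg MCHM (4.74, others 3.70 to 3.83), and Apoc1 was high in MCHM vehicle replicate 4 (6.72, others 3.55 to 3.80), 1 of the 2 kidneys high in albumin. Apob was high in MCHM vehicle replicate 3 (5.30, others 4.96 to 5.06), and Apoe was high in replicate 15 at 1 mg/kg MCHM (12.10, others 11.43 to 11.49) and in replicate 42 at 500 mg/kg MCHM (11.76, others 11.52 to 11.55). That last kidney was 1 of the 2 highest in fat cell markers (Ucp1 12.41, median of the other kidneys 4.65).

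The Apoa4 change differed between liver and kidney at 1000 mg/kg PPH by -1.30 (adjusted p = 0.0141 in limma), with kidney Apoa4 below the filter level, so no kidney change was measured. With the animal number as a block, in a fit that also lacked the treated liver at 9.86, the difference was -1.12 (adjusted p = 0.0531).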

How the results depend on the processing

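No change of sign of a called value occurred under any alternative. Counts of members called moved as follows. At 500 mg/kg MCHM in liver the count went from 0 to 1 with a further quantile normalization, array weights or all chemicals in 1 fit. With no filter it went from 2 to 1 at 500 mg/kg crude MCHM, at 1000 mg/kg PPH and in both of their trends. The PPH trend also went from 2 to 1 with the mean of probe sets and with further quantile normalization. The liver minus kidney count with PPH went from 1 to 2 with quantile normalization and to 0 with the replicate block, a fit of 22 rats that had both tissues; the block changed no other member's call, and called 60 of all genes in place of 94. With 1 array left out at a time the counts ranged from 1 to 2 (MCHM trend), 0 to 2 (crude MCHM trend), 0 to 2 (500 mg/kg crude MCHM), 1 to 2 (1000 mg/kg PPH), 0 to 2 (PPH trend) and 0 to 2 (liver minus kidney, PPH). Calls over all genes, as shares of the genes tested in the reported fits, moved more. For 500 mg/kg, 0.512% became 1.53% with array weights and 1.18% with all chemicals in 1 fit (MCHM), and 0.675% became 1.70% and 1.17% (crude MCHM). For 1000 mg/kg PPH, 1.75% became 3.07% in liver with all chemicals in 1 fit, and 2.03% became 1.24% in kidney with the mean of probe sets. Larger moves were from 0.0177% to 0.541% in kidney at 500 mg/kg MCHM with array weights, and from 0.0882% to 1.28% in liver at 500 mg/kg PPH with all chemicals in 1 fit. The cause was not tested. Groups of 2 to 5 arrays and signals near the top of the scale limit what could be seen.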
